A study of Homo sapiens with 2 samples.

Results

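Keratin mRNAs were examined in RNA that coprecipitated with IMP1 or with control IgG from T47D cells. The family was taken as 10 genes chosen by symbol, 4 luminal keratins (KRT7, KRT8, KRT18 and KRT19) and 6 basal and other keratins (KRT5, KRT14, KRT17, KRT10, KRT15 and KRT80). Of these, 9 were found among the 18781 genes of the deposited table, and KRT5 was not listed there and was not analysed here. T47D is an established breast cancer line of luminal type, and both groups used its wild-type cells. In the RIP (RNA immunoprecipitation) assay, cell lysate was mixed with beads carrying either an antibody to the RNA-binding protein IMP1 or normal IgG, and RNA held on the washed beads was sequenced. Each condition has 1 library, so no difference reported below could be checked in a replicate and no p-value is given. An input library was not used here, so the abundance of a keratin mRNA in the lysate and its retention on the beads cannot be told apart.

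Keratins are the intermediate filament proteins of epithelial cells, and a filament is built from pairs of a type I and a type II keratin. Simple epithelia and the luminal cells of the breast make KRT8 and KRT7, which are type II, together with KRT18 and KRT19, which are type I. Basal and myoepithelial cells make the pair KRT5 and KRT14 and often KRT17, while KRT10 belongs to the differentiating layers of the skin.

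Levels are the authors' FPKM (sequenced fragments divided by transcript length and by library size), a scale that allows genes of different length to be compared. Differences between the libraries are log2 ratios of FPKM + 0.1, IMP1 over IgG, which understate the change of low genes. Ratios of FPKM itself are given as folds, where both values were above 0. The depth of each library is unknown, because the table holds FPKM and no counts. FPKM added up to 353885 with IMP1 and to 1298363 with IgG, and the mitochondrial genes made up 48.4% and 59.9% of these sums.

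The luminal label was checked against 15 marker genes of luminal epithelium other than keratins, all of which were listed. At least 1 FPKM was measured for 14 of them with IMP1 and for 11 with IgG, and their values summed to 1340 and 666 FPKM. AGR2, a secreted protein of luminal cells, was the most abundant marker with IMP1, at 595 FPKM against 207 FPKM with IgG. XBP1, a transcription factor of secretory cells, was the most abundant one with IgG, at 226 FPKM against 345 FPKM with IMP1. The membrane mucin MUC1 had 57.2 and 45.2 FPKM. CLDN4, a tight junction protein, stood apart, at 64.7 FPKM with IMP1 and 0.393 FPKM with IgG. The markers TFF1, TFF3 and ELF3 were above 0 with IMP1 and listed at 0 with IgG, where a value of 0 in FPKM can also be a failed estimate. Over all genes, 39.9% were listed at 0 with IgG and 8.24% with IMP1. Luminal markers were thus measured in both libraries.

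Mesenchymal markers went against the luminal label in the IgG library. The 14 genes of that list summed to 235 FPKM with IgG and to 3.50 FPKM with IMP1, and 10 of them reached 1 FPKM with IgG against 1 with IMP1. FN1 (fibronectin) was the most abundant in both libraries, with 79.7 FPKM for IgG and 1.30 FPKM for IMP1. The matrix proteoglycan DCN had 37.5 FPKM with IgG and was listed at 0 with IMP1. LUM, another matrix proteoglycan, had 22.0 FPKM with IgG and was also at 0 with IMP1. The collagen gene COL1A1 had 24.4 FPKM with IgG and 0.791 FPKM with IMP1. In all, DCN, LUM, ZEB2, COL1A2, SPARC and PDGFRB were listed at 0 with IMP1, and FAP was listed at 0 with IgG. Only FAP and TWIST1, at 0.605 FPKM with IMP1 and 0.424 FPKM with IgG, had the higher value with IMP1. Of the list, 12 genes were at least 2-fold lower with IMP1 and 0 were higher, where 29.9% and 39.9% of all listed genes were. With both libraries set to the same FPKM sum, 11 were lower and 2 were higher. The median log2 ratio of -5.21 lay between -5.48 and -4.29 under 5 other scalings. The part of these markers in the keratin results below was not tested. In such bulk samples, fewer cells of a type and less RNA per cell cannot be told apart.

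The luminal keratins KRT19, KRT8 and KRT18 were among the abundant mRNAs of the IMP1 precipitate and had lower values with IgG. KRT19 (ENSG00000171345), the smallest keratin, which lacks a tail domain, had 371 FPKM with IMP1 and 78.8 FPKM with IgG, a fold of 4.71 and a log2 ratio of 2.23. It ranked 73 among all genes with IMP1 and 414 with IgG, where rank 1 is the highest value. KRT8 (ENSG00000170421), the type II keratin of simple epithelia, had 162 and 76.8 FPKM, a fold of 2.11 and a log2 ratio of 1.08. Its levels in the IgG library thus lay next to those of KRT19, while with IMP1 the genes were farther apart. KRT18 (ENSG00000111057), the type I partner of KRT8, had 143 and 25.8 FPKM, a fold of 5.55 and a log2 ratio of 2.47. Its rank was 174 with IMP1 and 1566 with IgG. Among the 4 luminal keratins, KRT18 had the highest ratio.

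KRT7 (ENSG00000135480), the type II keratin of ducts and glands, was the exception among the luminal members. It had 14.1 FPKM with IMP1 and 30.7 FPKM with IgG, so that the IgG value was 2.18-fold higher, and its log2 ratio was -1.12. In the IgG library KRT7 was above KRT18, whereas in the IMP1 library it was the lowest luminal keratin. The direction of KRT7 depended on the scale of the libraries, as its ratio was 0.75 after both libraries were set to the same FPKM sum and 0.39 when mitochondrial genes were left out of that sum.

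**Figure D1:**
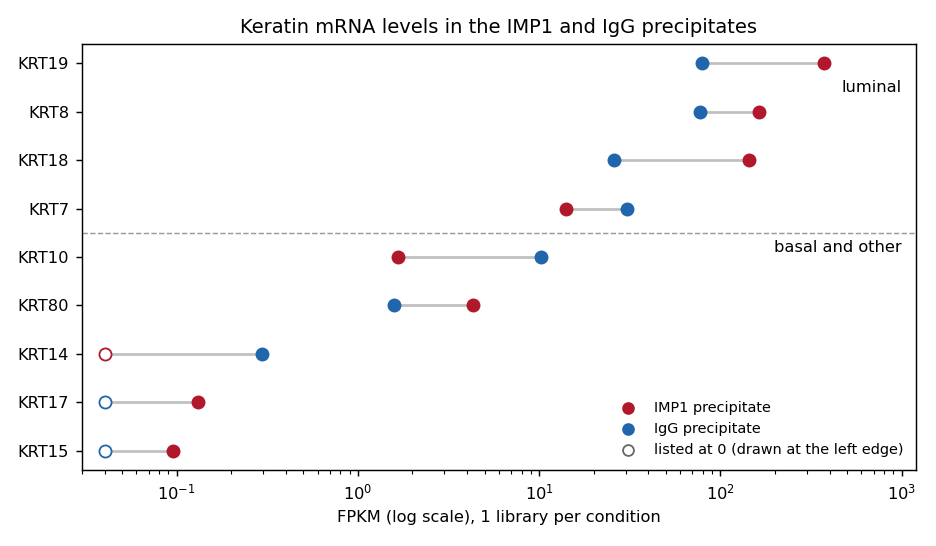
FPKM of the 9 listed keratins on a log scale, with red points for the IMP1 precipitate, blue points for the IgG precipitate and 1 library for each. Open points at the left edge are values listed at 0. KRT19, KRT8 and KRT18 lie at 143 to 371 FPKM with IMP1, and KRT14, KRT15 and KRT17 lie below 0.3 FPKM in both libraries.

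The basal and other keratins were lower than the luminal ones in each library, and KRT14, KRT15 and KRT17 were far lower. KRT80 (ENSG00000167767), a type II keratin of several epithelia, had 4.30 FPKM with IMP1 and 1.59 FPKM with IgG, a fold of 2.71 and a log2 ratio of 1.38. KRT10 (ENSG00000186395) had 1.66 and 10.2 FPKM, so that the IgG value was 6.16-fold higher, with a log2 ratio of -2.55. KRT10 was thus the most abundant of these genes with IgG and KRT80 with IMP1. KRT14 (ENSG00000186847), the type I partner of KRT5, was listed at 0 with IMP1 and had 0.294 FPKM with IgG. KRT17 (ENSG00000128422), a type I keratin of basal cells and of wounded skin, had 0.131 FPKM with IMP1 and was listed at 0 with IgG. KRT15 (ENSG00000171346), a type I keratin of basal cells and hair follicles, had 0.0954 FPKM with IMP1 and was also at 0 with IgG. The basal markers KRT14, KRT15 and KRT17 were therefore at or near 0 in both precipitates.

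Taking the sums, the 4 luminal keratins reached 691 FPKM with IMP1 and 212 FPKM with IgG, a fold of 3.26 and a log2 ratio of 1.70. The 5 listed basal and other keratins reached 6.19 and 12.1 FPKM, a log2 ratio of -0.96 that turned to 0.90 with libraries set to the same sum and to 0.54 without mitochondrial genes. Luminal keratins made up 0.378% of the FPKM sum without mitochondrial genes with IMP1 and 0.0407% with IgG. With IMP1 the lowest luminal keratin was KRT7 at 14.1 FPKM and the highest of the others was KRT80 at 4.30 FPKM. With IgG these were KRT18 at 25.8 FPKM and KRT10 at 10.2 FPKM. The luminal and the other members hence did not overlap in level in either precipitate.

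Of the 9 members, 5 were at least 2-fold higher with IMP1 and 3 were at least 2-fold lower, where 39.9% of all listed genes were higher and 29.9% were lower. The median log2 ratio was 1.08 for the members and 0.40 for all genes. KRT8, KRT18, KRT19, KRT80 and KRT17 were the higher ones, and KRT7, KRT10 and KRT14 the lower ones. The calls of KRT17 and KRT14 rest on the pseudocount, as their ratios were 0.18 and -0.37 with a pseudocount of 1. The balance depended on the scale of the libraries. With both set to the same FPKM sum, 6 members were higher and 1 lower, against 11962 and 2433 of all 18781 genes. Scaling to luminal epithelium genes gave 2 higher and 3 lower, against 6532 and 6555 of all genes. Scaling to broadly expressed genes also gave 2 and 3, against 6389 and 6729. Requiring 1 FPKM or more in each library, 6 members were left, of which 4 were higher and 2 were lower, against 11.5% and 44.0% of the 6909 genes that passed. The median of those genes was -0.78. Their shares also depended on the scale, with 3568 of the 6909 higher and 550 lower after both libraries were set to the same FPKM sum. The scaling to the median gene gave 1724 and 1721, and that to luminal epithelium genes gave 434 and 3859. At 10 FPKM or more in both libraries, the 4 luminal keratins were left, 3 of them higher and 1 lower, against 9.58% and 31.6% of 1628 genes with a median of -0.46. By log2 ratio, KRT18 ranked 16 of these 1628 genes, KRT19 ranked 22, KRT8 ranked 143 and KRT7 ranked 1172. As a group the luminal keratins had 3 genes higher, 1 lower and a median of 1.66, while the basal and other keratins had 2 higher, 2 lower and a median of 0.97, which is the ratio of KRT15 and so rests on the pseudocount.

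**Figure D2:**
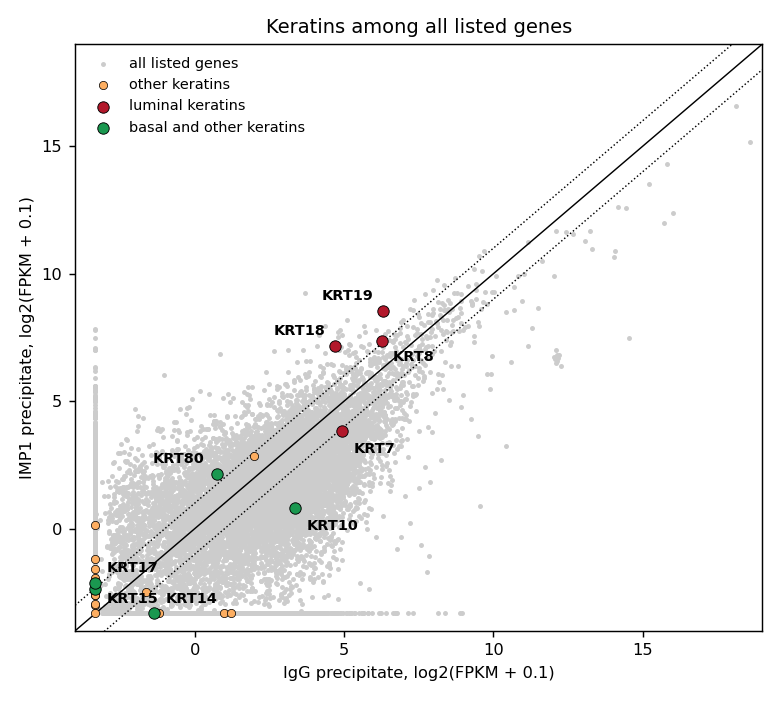
Each point is 1 of the 18781 listed genes, with log2(FPKM + 0.1) in the IgG library on the x axis and in the IMP1 library on the y axis. The solid line marks equal values and the dotted lines a 2-fold difference. KRT18, KRT19, KRT8 and KRT80 lie above the upper dotted line, and KRT7 and KRT10 lie below the lower one.

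The scale of the libraries shifts the ratio of each gene above 0 with IMP1, and 5 other scalings were computed. Genes listed at 0 with IMP1, such as KRT14, keep their ratio under all of them. Setting the median gene with at least 1 FPKM in both libraries to a ratio of 1 moved IMP1 values by 0.79 on the log2 scale, and setting equal FPKM sums moved them by 1.88, or by 1.51 without mitochondrial genes. Setting the median of the 12 luminal epithelium genes above 0 in both libraries to 1, or that of the 15 broadly expressed genes, both chosen after seeing the data, moved them by -0.47 and -0.55. The median over all genes, 0.40 as deposited, became 0.96, 1.87, 1.55, 0.12 and 0.07 in this order. Of all genes past 2-fold, 57.2% were higher with IMP1 as deposited, and 69.9%, 83.1%, 79.7%, 49.9% and 48.7% under these scalings. KRT19 stayed above 0 under each of them, with ratios from 1.68 to 4.11, and KRT18 did so from 1.92 to 4.34. KRT8 was above 0 under these 5 scalings, from 0.53 to 2.95, but was under 2-fold with the scalings to the 12 luminal epithelium genes (0.60) and to broadly expressed genes (0.53). Its ratio as deposited, 1.08, was below the median of all 15 luminal epithelium genes, 1.31, which includes genes listed at 0 with IgG. KRT80 ranged from 0.85 to 3.23 and was under 2-fold in the same 2 cases, at 0.92 and 0.85. KRT10 was below 0 under all of them, from -3.07 to -0.74, and KRT7 was the member that changed sign among those measured at 1 FPKM or more in each library. The ratios of KRT14, KRT15 and KRT17 follow mainly the pseudocount, because each was listed at 0 in 1 library.

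**Figure D3:**
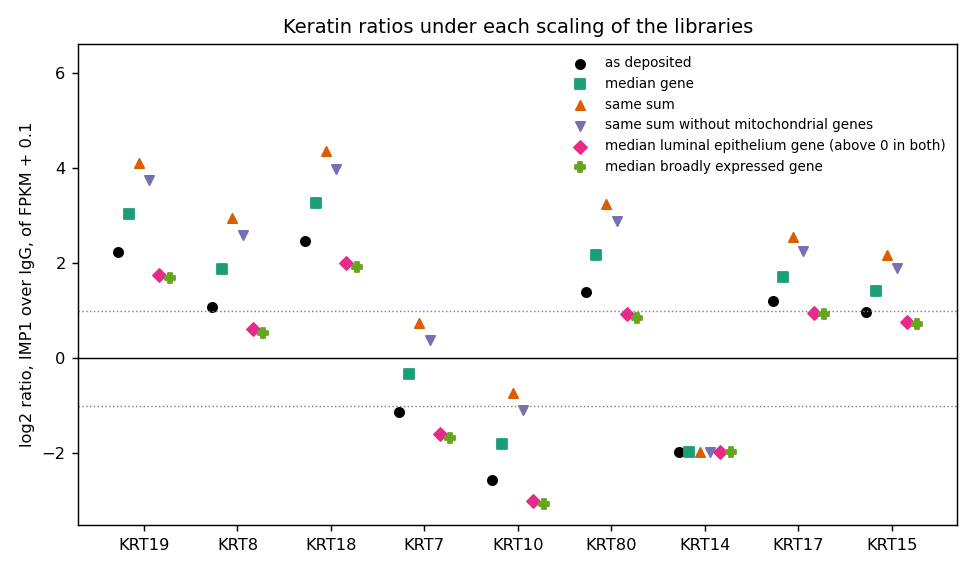
Log2 ratio of FPKM + 0.1, IMP1 over IgG, for the 9 listed keratins as deposited (black) and under 5 other scalings of the libraries. The solid line marks a ratio of 0 and the dotted lines 2-fold. KRT19 and KRT18 stay above 1 with every symbol, while KRT7 lies on both sides of 0, at -1.12 as deposited and 0.75 with equal sums.

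Ratios between keratins within a library do not depend on its scale. KRT8 exceeded its partner KRT18 1.13-fold with IMP1 and 2.98-fold with IgG. KRT19 exceeded KRT8 2.28-fold with IMP1 and 1.03-fold with IgG, and it exceeded KRT18 2.59-fold and 3.05-fold. The pair of type I keratins KRT18 and KRT19 was thus in nearly the same proportion in both precipitates. The type II keratin KRT8 took a smaller place beside them with IMP1. Ratios with KRT8 or KRT18 rest on the split of reads between these genes, which is uncertain because they share an interval. KRT8 exceeded KRT7, the other type II luminal keratin, 11.5-fold with IMP1 and 2.51-fold with IgG.

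By the types given in the table, 12 of the listed keratin rows are type II and 11 are type I, and 1 row has no type. Type II keratins summed to 181 FPKM and type I keratins to 524 FPKM in the IMP1 library, a ratio of 0.346. In the IgG library the sums were 114 and 119 FPKM, a ratio of 0.953. Type I keratin mRNA therefore outweighed type II with IMP1, and both types were at similar sums with IgG. These sums rest in part on the uncertain split of reads between KRT8, of type II, and KRT18, of type I. Of all keratin FPKM, KRT19 made up 52.5% with IMP1 and 33.9% with IgG, and KRT18 made up 20.3% and 11.1%. The share of KRT8 was 23.0% with IMP1 and 33.0% with IgG, and that of KRT7 was 1.99% and 13.2%. KRT10 held 0.235% and 4.39%, and KRT80 held 0.609% and 0.682%. The type I luminal keratins thus had the larger shares with IMP1, and KRT8, KRT7 and KRT10 had the larger shares with IgG.

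**Figure D4:**
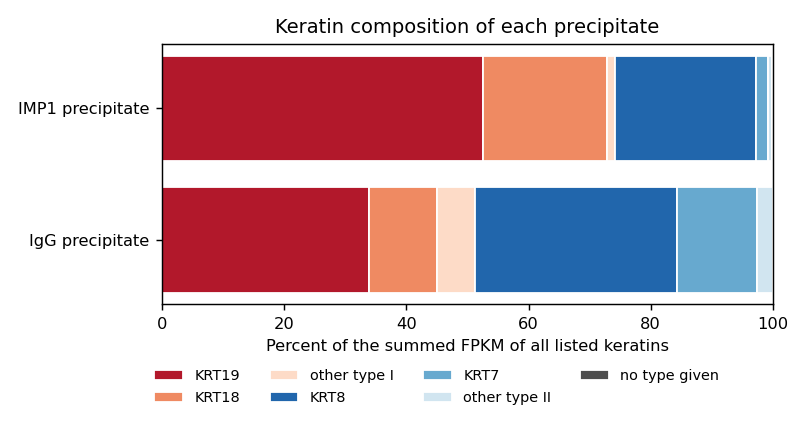
Stacked bars of the share of each keratin in the summed FPKM of all listed keratins, in percent, with type I keratins in red and type II keratins in blue and 1 library per bar. KRT19 takes 52.5% of the IMP1 bar and 33.9% of the IgG bar, and KRT7 takes 1.99% and 13.2%.

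The same genes were set against epithelial genes that are not keratins, again within each library. EPCAM, an epithelial adhesion molecule, had 48.4 FPKM with IMP1 and 55.1 FPKM with IgG, and CDH1 (E-cadherin) had 35.5 and 32.5 FPKM. Both were thus at similar values in the precipitates, and they were chosen after their values were seen, so that ratios to them largely restate the folds between libraries. KRT19 was 7.66-fold of EPCAM with IMP1 and 1.43-fold with IgG. KRT18 was 2.96-fold of EPCAM with IMP1 and 0.468-fold with IgG, and KRT8 was 3.35-fold and 1.39-fold. KRT7 was 0.291-fold of EPCAM with IMP1 and 0.556-fold with IgG. To CDH1, KRT19 stood at 10.5 and 2.43, KRT18 at 4.04 and 0.795, and KRT7 at 0.397 and 0.945. The result depends on the gene chosen, and was therefore counted over the 12 luminal epithelium genes above 0 in both libraries. The ratio to them was larger with IMP1 for 11 of 12 in the case of KRT18 and of KRT19, for 7 in the case of KRT8 and for 1 in the case of KRT7. KRT8 had the smaller ratio with IMP1 to the other 5, AGR2, GATA3, PGR, SPDEF and CLDN4. This count leaves out TFF1, TFF3 and ELF3, which were at 0 with IgG and whose log2 ratios of 3.28, 7.94 and 6.14 were above those of all 4 luminal keratins.

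Positions are given on hg19, the build named in the submitters' processing notes, and the table gives overlapping genes 1 merged interval. Neighbours are the next genes by start among those listed, so genes that are not listed may lie between. KRT19 lies alone at chr17:39679869-39684560. Its listed neighbours in the type I cluster are KRT15 (chr17:39669995-39678781) and KRT14 (chr17:39738531-39743173), both near 0 in both libraries. KRT19 was thus high beside listed neighbours that were nearly unmeasured. KRT8 and KRT18 share the interval chr12:53290977-53346686 with AC107016.1, which had 3.84 FPKM with IMP1 and 0 with IgG. How reads of overlapping genes were assigned, and whether strand was used, is not given in the sources used here, so the split of reads between these genes is uncertain. On one side of this pair the next listed gene is KRT4, a keratin of mucosa, with 0.0655 FPKM with IMP1 and 0 with IgG. On the other side, at chr12:53399942-53458156, EIF4B, a translation initiation factor, had 71.3 FPKM with IMP1 and 14.1 FPKM with IgG (log2 ratio 2.33). TENC1 (3.26 and 7.61 FPKM) and RP11-983P16.4 (9.17 and 25.8 FPKM) share that interval.

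KRT7 shares chr12:52626304-52702947 with the hair keratins KRT81 and KRT86 and with RP3-416H24.1. KRT81 was listed at 0 with IMP1 and had 1.89 FPKM with IgG, while KRT86 had 0.337 FPKM with IMP1 and 0 with IgG. These are close relatives in sequence, so their values are uncertain too. Both were far below KRT7 in the library where they were measured. RP3-416H24.1 had 0.814 FPKM with IMP1 and was at 0 with IgG. The next listed genes on either side, LINC00592 and KRT83, had 0.132 and 0.0659 FPKM with IMP1 and 0 with IgG. KRT10 shares chr17:38974369-38992522 with TMEM99, which had 2.76 FPKM with IMP1 and 26.5 FPKM with IgG (log2 ratio -3.22). Both genes of this interval were thus lower with IMP1, and reads of one could have been assigned to the other. The next listed genes around it are SMARCE1, a chromatin remodelling subunit with 13.7 and 36.6 FPKM, KRT222 and KRT23. KRT17 lies in a merged interval of 5 genes, chr17:39775689-39943183, with JUP among them, and KRT80 lies alone at chr12:52562780-52585784.

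Genes with the most similar pair of values were sought among those with at least 1 FPKM in both libraries, by the distance over log2(FPKM + 0.1) in the 2 libraries. For KRT19 the nearest was EEF2, an elongation factor, with 388 and 74.0 FPKM (distance 0.110), and the next were CALR (0.729) and RPL18 (0.769). Those near KRT8 included the histone gene HIST2H2AC (0.0577) and the ribosomal protein gene RPS27A (0.234). The genes nearest to KRT18 were the histone genes HIST1H2AM (0.205) and HIST2H2BF (0.206) and STC2 (0.224), a secreted glycoprotein. Levels near those of the keratin follow from how these genes were sought. KRT7 was closest to SEC11C (0.0620), EIF3J (0.0646) and UBL7 (0.0698). KRT10 was closest to BBS1 (0.00993), POLE2 (0.0248) and SPTLC3 (0.0343), and KRT80 to FBXO34 (0.0142), LMBRD2 (0.0239) and DNAJC5 (0.0304). Low and middle levels are crowded, as the plot of all genes shows, so a short distance there is common.

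Beyond the members, 15 other keratin rows were listed, which brings the family to 24 rows of 23 symbols. These 15 summed to 9.12 FPKM with IMP1 and 8.51 FPKM with IgG. Of them, 4 were at least 2-fold higher and 3 were lower, where 39.9% and 29.9% of all listed genes were. Their median log2 ratio of 0.73 is that of KRT4 and so rests on the pseudocount, and 2 rows were above 0 in both libraries. KRT23, a type I keratin of simple epithelia, was the most abundant, with 7.03 FPKM with IMP1 and 3.83 FPKM with IgG (log2 ratio 0.86). The hair keratin KRT85 was listed at 0 with IMP1 and had 2.23 FPKM with IgG. KRT222 has 2 rows, of which 1 (ENSG00000264058) had 1.01 FPKM with IMP1 and 0 with IgG, and the other (ENSG00000213424) was at 0 in both libraries. KRT23 was above KRT80 in both libraries and below every luminal member. The 24 rows summed to 706 FPKM with IMP1 and 233 FPKM with IgG.

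Of the 24 keratin rows, 19 were above 0 with IMP1 and 12 with IgG, with 11 above 0 only with IMP1 and 4 only with IgG. Over all listed genes, 91.8% were above 0 with IMP1 and 60.1% with IgG, with 38.3% above 0 only with IMP1 and 6.58% only with IgG, so the smaller number of keratins with IgG is shared by the table as a whole. The smallest keratin value above 0 was 0.0267 FPKM with IMP1 and 0.222 FPKM with IgG. Of the 11 rows above 0 only with IMP1, 8 were below that smallest IgG value, KRT15 and KRT17 included. Keratin pseudogenes gave another view of how low each library reached. Of 32 listed, 31 were above 0 with IMP1 and 3 with IgG, their sums were 3.52 and 1.26 FPKM, and none reached 1 FPKM. For 16 of them that lie alone in an interval under 3 kb, FPKM multiplied by that length in kb had a median of 0.0624 over the 15 above 0 with IMP1, and was 0.486 and 0.885 for the 2 above 0 with IgG. Over all genes, values below the 0.0954 FPKM of KRT15 were 9.77% of those above 0 with IMP1 and 3.23% of those above 0 with IgG, so that the IgG library lists such low values less often but does list them. The 0 of KRT15 and KRT17 with IgG does not show absence. Reads of KRT8 and KRT18 can also align to these pseudogenes, whose sums were small beside the 162 and 143 FPKM of KRT8 and KRT18.

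Proteins that build or hold the other intermediate filaments were compared next. Of 15 other intermediate filament genes 10 were listed, with 62.2 FPKM in sum with IMP1 and 97.0 FPKM with IgG. Of these, 2 were higher and 5 were lower, where 39.9% and 29.9% of all listed genes were. The median log2 ratio was -0.75. That median turned above 0 with the scalings to the median gene (0.03), equal sums (1.10) and equal sums without mitochondrial genes (0.74). The counts under these were 2 higher and 4 lower, 5 and 4, and 5 and 4. The nuclear lamin LMNA had 30.8 FPKM with IMP1 and 41.5 FPKM with IgG, and LMNB1 had 15.3 and 13.5 FPKM. VIM (vimentin), the filament of mesenchymal cells and also in the mesenchymal list, had 0.463 and 20.1 FPKM. DES (desmin), the filament of muscle, was listed at 0 with IMP1 and had 7.00 FPKM with IgG. In the IMP1 library keratins therefore outweighed VIM and DES by far more than in the IgG library.

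Of 18 genes for desmosome and linker proteins that bind keratin filaments, 16 were listed, with sums of 60.8 FPKM with IMP1 and 83.8 FPKM with IgG. Of these, 3 were higher and 6 were lower, where 39.9% and 29.9% of all listed genes were. The median was -0.65, which also turned above 0 with the same 3 scalings, to 0.06, 0.73 and 0.50. The counts turned as well, to 5 higher and 1 lower, 7 and 0, and 7 and 0. With the scalings to luminal epithelium and to broadly expressed genes they were 2 and 7, and 2 and 8. JUP (plakoglobin) had 32.2 FPKM with IMP1 and 26.2 FPKM with IgG. PKP4, a plakophilin, had 4.32 and 20.8 FPKM, and DST, a linker of the hemidesmosome, had 2.68 and 9.03 FPKM. DSP (desmoplakin), which ties keratins to desmosomes, had 3.06 and 8.28 FPKM. Of these 4 partners, JUP was the only one with the higher value with IMP1 as deposited.

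Genes of basal, myoepithelial and skin cells were listed beside KRT14, KRT15 and KRT17. Of 15 basal or myoepithelial genes 13 were listed, with sums of 17.7 FPKM with IMP1 and 19.0 FPKM with IgG. Of these, 6 were higher and 5 were lower, where 39.9% and 29.9% of all listed genes were. Their median was 0.47, between 0.33 and 1.73 under the other scalings. The counts were 8 and 2 with equal sums, and 5 and 5 with either scaling to a gene list. TP63, the transcription factor that marks basal cells, had 0.0383 FPKM with IMP1 and was at 0 with IgG. ACTA2, the smooth muscle actin of myoepithelial cells, had 2.36 and 7.79 FPKM. CDH3 (P-cadherin) had 5.72 and 2.34 FPKM, ITGA6 had 2.02 and 4.84 FPKM, and ITGB4, its integrin partner, had 3.75 and 0.127 FPKM. Of 15 skin keratinocyte genes 4 were listed, TGM1 with 0.211 and 0.331 FPKM and IVL, DSC1 (also in the desmosome list) and FLG, which had 0.0612, 0.0448 and 0.0178 FPKM with IMP1 and were at 0 with IgG. Of those 4, 0 were past 2-fold, their median was 0.39, between 0.27 and 1.21 under the other scalings, and their sums were 0.334 and 0.331 FPKM. That count says little, because values under 0.1 FPKM against 0 cannot reach 2-fold with a pseudocount of 0.1. This holds for IVL, DSC1 and FLG as deposited, and the median rests on the pseudocount too. KRT10 in the IgG library thus stood at 10.2 FPKM beside skin genes near 0.

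For the lists of luminal and broadly expressed genes the counts were as follows, where 39.9% of all listed genes were higher and 29.9% lower. Of the 15 luminal epithelium genes, 8 were at least 2-fold higher with IMP1, 1 was lower and the median was 1.31, between 0.76 and 3.18 under the other scalings. Of 15 broadly expressed genes, 3 were higher, 5 were lower and the median was 0.55, between 0.00 and 2.43 under the other scalings. Their counts turned to 9 higher and 1 lower with equal sums, and were 1 and 7 with either scaling to a gene list. Their sums were 4397 and 6172 FPKM. PPIA had 1157 and 649 FPKM and EEF1A1 had 918 and 423 FPKM, whereas ACTB had 716 and 1634 FPKM and B2M had 232 and 2474 FPKM. The luminal keratins, with a median of 1.66 over 4 genes, lay beside the luminal epithelium list. Both medians were above that of all genes, 0.40, as were those of the broadly expressed list and the basal or myoepithelial list (0.47). Among genes with 1 FPKM or more in both libraries the median was -0.78.

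**Figure D5:**
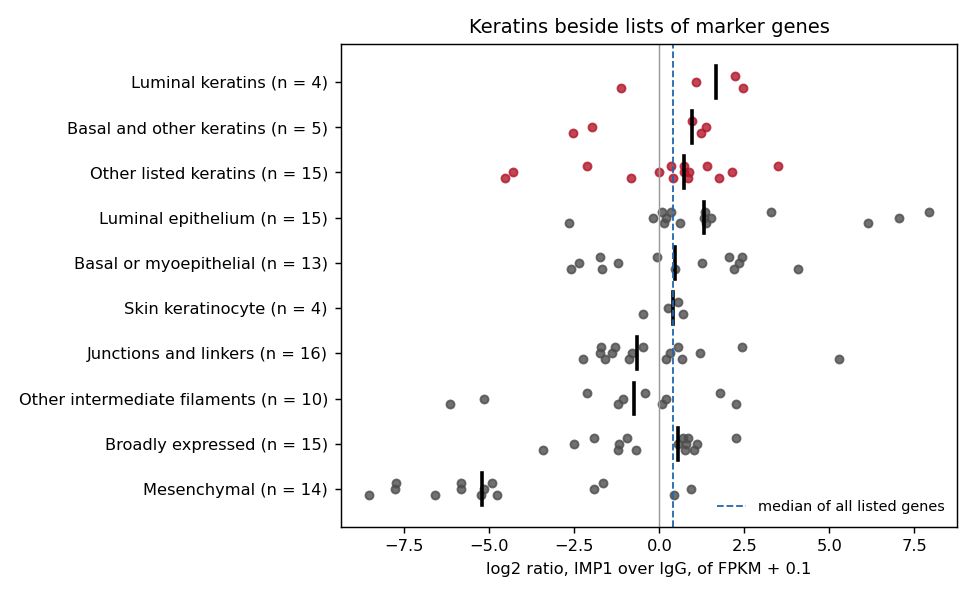
Log2 ratio of FPKM + 0.1, IMP1 over IgG, for single keratins (red) and for single genes of 7 marker lists (grey), with black bars at the medians and a dashed line at the median of all genes. Luminal keratins have a median of 1.66, luminal epithelium genes 1.31 and mesenchymal genes -5.21. With libraries set to equal sums, the medians of the junction and other intermediate filament lists lie above 0.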

How the data were processed

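RNA from 1 anti-IMP1 and 1 IgG precipitate of T47D cells was sequenced. The authors deposited FPKM per gene for each library. The build hg19 is named in the submitters' processing notes, and the aligner, FPKM software and annotation are not given in the sources used here. The deposited table also holds the authors' fold change, p-value, q-value and direction, which were not used, and 3 shorter files with rows chosen on them were not used either. Values of 1e-05 or less were read as 0. Starts count from 0, so 1 was added.

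Log2 ratios of FPKM + 0.1 were computed for all 18781 genes, and called means past 2-fold. With 1 library per condition no test was run. The depth is unknown, which limits low values. Named genes are the members, other keratins with at least 1 FPKM in a library, the 4 highest genes of each list, the 3 nearest genes and neighbours. Others were chosen after their values were seen. A gene that this rule names is not reported here. Members and lists were chosen with earlier results of these data known. Of the 9 listed members, 9 identifiers matched their symbol in a reference table. Alternatives were other pseudocounts, scalings, filters, a 4-fold threshold and other sets of keratins. The ratio and counting steps were tested on simulated data. Python 3.11.15, numpy 2.4.6, pandas 2.3.3 and matplotlib 3.10.9 were used.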

Additional observations from a re-analysis of the deposited data

How the results depend on the processing

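No paired analysis was possible because each condition has a single library and nothing was tested, and for the same reason replicates were not left out in turn. Of 103 values under alternatives, 63 stayed within 1.5-fold of the reported value and 40 moved further, of which 4 changed sign. KRT7 (-1.12) turned to 0.75 with equal FPKM sums and to 0.39 with equal sums without mitochondrial genes. The log2 ratio of the summed luminal keratins (1.70) became 2.50 with the scaling to the median gene, 3.58 with equal sums and 3.22 without mitochondrial genes. For the summed basal and other keratins (-0.96) it became -0.17, 0.90 and 0.54. These moves follow from the shift of the IMP1 values by construction. The number of basal and other members at least 2-fold lower, 2 as reported, was 1 with a pseudocount of 1, with equal sums, among genes above 0 in both libraries, with at least 0.5 FPKM in a library, at 4-fold, and with 1 FPKM or more in each library. Luminal members at least 2-fold higher were 3 or 2 under every alternative. Over all genes, 7488 were higher and 5610 lower as deposited. Under the other scalings, 6389 to 11962 were higher and 2433 to 6729 lower. The ratio of type II to type I keratin stayed within 1.5-fold in each library with the members alone and with pseudogenes added. Basal and other members at least 2-fold higher, 2 as reported, were 0 with the scalings to luminal epithelium genes above 0 in both libraries and to broadly expressed genes, and 3 with the other scalings. Both scalings to gene lists and the filter of 1 FPKM in both libraries were chosen after seeing the data. Depth is unknown, which limits low values such as those of KRT14, KRT15 and KRT17.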

Other observations

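Keratin-associated proteins, the matrix proteins of hair, were listed for 13 genes, pseudogene and antisense rows included. Of these, 7 were above 0 only with IMP1, 5 only with IgG and 1 was listed at 0 in both libraries, where 38.3% of all genes were above 0 only with IMP1 and 6.58% only with IgG. Among them, 1 reached 1 FPKM in a library, KRTAP8-2P with 2.93 FPKM with IMP1 and 0 with IgG, chosen after its value was seen.

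Some keratin partners with low values stood apart from their list and were named after their values were seen. PKP3, a plakophilin of desmosomes, had 3.81 FPKM with IMP1 and was listed at 0 with IgG. FAM83H, a protein that binds keratin filaments, had 3.42 FPKM with IMP1 and 0.556 FPKM with IgG. PLEC (plectin), a linker between filament systems, had 2.39 and 0.998 FPKM.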
